A study of Arabidopsis thaliana with 27 samples.

Results

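The transcripts described here are the late risers of wild-type Arabidopsis thaliana callus: those that held a similar level through day 3 on shoot-inducing medium and were higher on day 6. A probe set is the group of short array probes that reads 1 transcript. It was taken as a late riser when its wild-type mean on day 3 lay between 0.5 below and 0.5 above its day 0 mean on the log2 scale, and its day 6 mean was at least 0.8 above its day 3 mean. Of 22746 probe sets other than array controls, 161 met both thresholds. Of 8 photosynthesis and polyamine names set aside from the choice, 4 met them (PRK, LHCB4.1, HPR and AT5G15950), which left 157 late risers, or 0.69% of all. The late risers were thus chosen by the log2 means of the 9 wild-type arrays, so the wild-type course and every difference from wild type are given as descriptions with no test. The contrasts tested are all among the 18 mutant arrays, which the choice did not use. The wild-type arrays entered these tests only through the estimate of spread that all groups share.

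The arrays cover callus from the mutants lba1-1/upf1-1 (upf1-1 below) and upf3-1 and from wild-type Col-0, all of the Columbia ecotype. Hypocotyls of 12-day-old seedlings grown on MS medium spent 6 days on callus-inducing medium, and the callus was moved to shoot-inducing medium for 0, 3 or 6 days. No other treatment separated the groups, and each of the 9 groups has 3 arrays. A replicate is an array, and the labels do not say that the 3 came from separate cultures, so each p-value reflects array-to-array spread that may be technical. In such bulk samples, fewer cells of a type and less RNA per cell cannot be told apart.

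Hypocotyl callus made on auxin-rich medium resembles lateral root primordium tissue, and a cytokinin-rich shoot-inducing medium leads parts of it to form shoot meristems and green tissue. UPF1 is an RNA helicase and UPF3 its partner in nonsense-mediated mRNA decay, which removes transcripts whose stop codon is read as premature and also some normal transcripts. Nuclear genes for thylakoid proteins are usually switched on as plastids become green chloroplasts. Expansins, xyloglucan enzymes, secreted peroxidases and oxidases act on the wall of growing or differentiating cells.

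The labels were checked on the targeted gene first. UPF3 read 5.70 to 6.38 over the 9 upf3-1 arrays, 9.45 to 9.73 over the 9 upf1-1 arrays, and 8.98 to 9.14 over the 9 wild-type arrays (log2 signal), so no upf3-1 array reached any other. No probe set was annotated to UPF1 alone, so the upf1-1 label has no such check. The title of upf1-1 day 0 replicate 1 names both wild type and upf1-1, while its source name and genotype give upf1-1, and its UPF3 signal of 9.64 lay among the other upf1-1 arrays. It was kept, and the results on day 0 of upf1-1 are also given without it where it moves them. Poly-A spike-in controls, which are added to each RNA sample, averaged 5.92, 5.78 and 5.44 on days 0, 3 and 6 in upf1-1, 6.00, 5.66 and 5.38 in upf3-1, and 6.25, 5.98 and 5.52 in wild type. The group means were lower at each later day in all 3 genotypes, while the mean of 5 reference genes stayed between 8.42 and 8.53 in every group. The part of this drift in the results was not tested beyond the rescaled values given below. Array signals carry no read depth, and the 3 arrays a group limit the precision.

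In wild type the late risers had a median signal of 5.80 on day 0, 6.00 on day 3 and 6.99 on day 6, against 6.56 over all probe sets. Their day 6 minus day 3 difference had a median of 0.99 and ran from 0.80 to 1.88, and 81 of the 157 were under 1. All 3 wild-type day 6 arrays lay above all 3 day 3 arrays in 145 of them, where 9.58% of all probe sets did so, and nothing is read from that count because the same arrays chose them. The late risers were noisier than most probe sets: the median SD over 3 wild-type arrays was 0.265, 0.25 and 0.336 on days 0, 3 and 6, against 0.103, 0.109 and 0.097 over all probe sets. Leaving out 1 wild-type array and choosing again gave 137 to 196 late risers, and 57 of the 157 were chosen whichever array was left out. One gene symbol was annotated to 61 of them (38.9%, against 59.4% of all probe sets), several to 3 and none to 93. The 61 alone are named below, apart from 2 probe sets given by number, and 6 of the 10 largest wild-type rises are among the unnamed.

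Some wild-type rises leaned on 1 array. AT1G26380, a berberine bridge enzyme-like oxidoreductase, read 7.64, 5.38 and 5.06 in the 3 wild-type day 6 arrays, against 4.29, 4.12 and 4.92 on day 3. AT2G04050, a MATE efflux transporter, read 7.62, 5.29 and 5.57 on day 6, against 5.16, 4.33 and 5.46 on day 3. Replicate 1 was far above its group in both. Without it the rises were 0.77 and 0.45, under the threshold of 0.8, and neither gene was called in either mutant between days 3 and 6. The multicopper oxidase-like sks15 read 4.17, 4.66 and 6.42 on day 6, against 3.34, 3.75 and 3.19 on day 3, and there replicate 3 stood apart, but the rise without it was still 0.99. Over all late risers, replicate 3 was the highest wild-type day 6 array in 80 and replicate 1 the lowest in 80. These 3 genes were singled out after their values were seen.

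Between days 3 and 6, 36.9% of the late risers were called higher in upf1-1 and 59.9% in upf3-1. A probe set is called when limma's adjusted p, Benjamini-Hochberg over all 22746 probe sets and two-sided, is under 0.05. In upf1-1, 58 late risers were called higher on day 6 than on day 3 and 0 lower, where 2.29% of all probe sets were called higher and 1.55% lower. At an unadjusted limma p under 0.05, 109 were higher and 0 lower, where 8.75% and 9.91% of all probe sets were. In upf3-1, 94 were called higher and 2 lower, where 5.27% of all were called higher and 5.05% lower, or 10.3% in either direction. The median difference over the 157 was 0.58 in upf1-1 and 0.66 in upf3-1, against -0.02 and -0.00 over all probe sets. The difference was above 0 in 154 and 145 late risers, where 45.6% and 49.2% of all probe sets were above 0. All 3 day 6 arrays lay above all 3 day 3 arrays in 113 late risers in upf1-1 and in 109 in upf3-1, where 9.9% and 14.6% of all probe sets did so.

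The size of these counts depended on single arrays. In upf1-1 the count was 23 without day 3 replicate 3, 23 without day 6 replicate 2, 35 without day 3 replicate 1 and 37 without day 6 replicate 3, and 14 of the 58 were called whichever of its 6 arrays was left out. In upf3-1 it was 51 without day 6 replicate 2 and 52 without day 3 replicate 1, and 44 of the 94 were called throughout. The upf3-1 day 6 arrays were uneven: replicate 2 was the highest of 3 in 105 late risers and replicate 1 the lowest in 106. Each array was instead centred on the poly-A spike-ins. The median change of all probe sets between days 3 and 6 was then 0.32 in upf1-1 and 0.28 in upf3-1, and 134 and 122 late risers were called higher. Of the 22746 probe sets, 4126 and 2874 were called higher with that centring. The share of all calls that were higher was then 98.7% in upf1-1 and 90.5% in upf3-1, against 59.6% and 51.0% before. With the arrays centred on the reference genes it was 82.8% and 62.0%, with 71 and 94 late risers called higher.

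**Figure D1:**
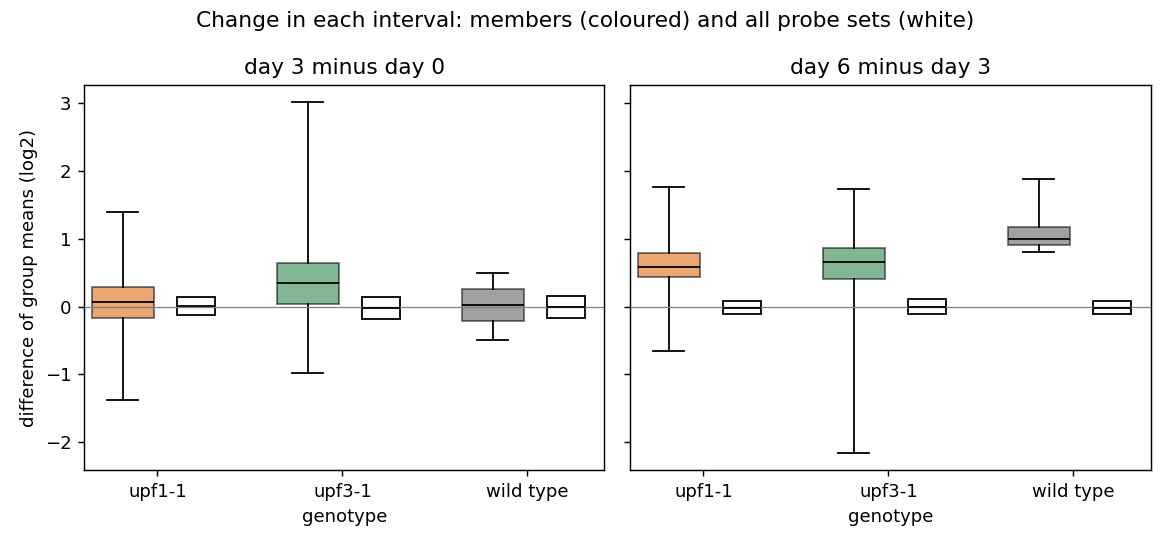
Changes of the 157 late risers between days, in log2 units, for upf1-1, upf3-1 and wild type, for day 3 minus day 0 and day 6 minus day 3. Coloured boxes span the quartiles of the late risers, with the median as a line and whiskers to the lowest and highest, and white boxes give the quartiles of all probe sets. From day 3 to day 6 the mutant medians were 0.58 and 0.66 against 0.99 in wild type, and from day 0 to day 3 they were 0.07, 0.34 and 0.02 in the same order.

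The late change was smaller than the wild-type one in 143 late risers in upf1-1 and in 140 in upf3-1, a description that the choice tilts, since it asked for a large difference in wild type alone. A difference of at least 1 was reached by 20 in upf1-1 and 23 in upf3-1, against 76 in wild type. Called higher in both mutants were 47, 11 were called higher in upf1-1 and not in upf3-1, 47 higher in upf3-1 and not in upf1-1, and 52 higher in neither. The matching shares of all probe sets are not given here, so nothing is read from the overlap. The 2 called lower in upf3-1 were AT2G18370, which is among the 11, and 247718_at, which is among the 52. A test of the difference between the 2 late changes, limma's interaction term, called 1 late riser, with the larger change in upf3-1. Over all probe sets 0.0352% were called that way, 0.0572% the other way and 0.0923% in all. So a call in 1 mutant and not in the other does not show a difference between them. At an unadjusted p under 0.05 the interaction term gave 20 late risers. The matching share of all probe sets is not given here, so nothing is read from the 20. Across the 157 late risers the late change in upf1-1 correlated with the wild-type one with Pearson's r = 0.25, and that in upf3-1 with r = -0.00, while upf3-1 and upf1-1 gave r = 0.36. These values describe points that share a narrow wild-type range and 3 arrays per mean.

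**Figure D2:**
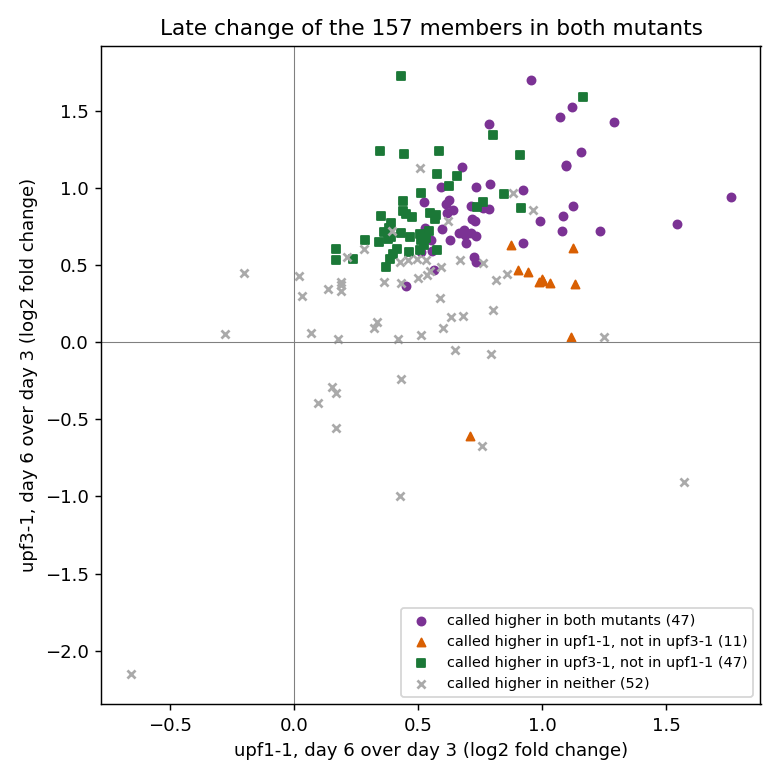
Day 6 over day 3 log2 fold change of each of the 157 late risers in upf1-1 (x axis) and in upf3-1 (y axis), with colour and marker for the limma calls. The 47 called higher in both lie to the upper right, 11 were called higher in upf1-1 and not in upf3-1, 47 higher in upf3-1 and not in upf1-1, and 52 higher in neither.

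CuAO1 and AT2G27080 rose after day 3 in both mutants under every setting tried. The copper amine oxidase CuAO1, which oxidises polyamines, read 6.91, 6.89 and 7.16 on day 6 in upf1-1, against 5.91, 6.38 and 6.39 on day 3. It read 7.25, 7.21 and 7.34 in upf3-1, against 6.22, 6.55 and 6.43. No day 6 array overlapped a day 3 array. The log2 difference was 0.76 ± 0.12 (SE, n = 3 against 3 arrays) in upf1-1 with a limma adjusted p of 0.00104 (0.000132 to 0.0268 over the alternatives), and 0.87 ± 0.12 in upf3-1 with 6.29e-05 (2.14e-05 to 0.0039). In upf1-1 this rise followed a fall, as CuAO1 was called lower on day 3 than on day 0. The call of the fall was lost with only the groups compared in the fit (limma adjusted p = 0.0854) and with spike-in centring (0.503). AT2G27080, of a family of late embryogenesis abundant hydroxyproline-rich glycoproteins, read 8.71, 8.63 and 8.48 on day 6 in upf1-1, against 7.85, 8.20 and 7.71 on day 3, and 8.22, 8.34 and 8.24 in upf3-1, against 7.55, 7.80 and 7.52. Its groups did not overlap either. The differences were 0.69 ± 0.12 in upf1-1 (limma adjusted p = 0.0014, 7.34e-05 to 0.0297) and 0.64 ± 0.12 in upf3-1 (0.000875, 0.000166 to 0.00964). These 2 were singled out after the tests, from the 61 late risers with 1 gene symbol, for holding in both mutants. CuAO1 lies outside the rule for named genes.

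Others held in 1 mutant's test. AT1G65500 showed the largest named late change in upf1-1: it read 8.69, 8.67 and 8.48 on day 6, against 6.40, 7.04 and 7.13 on day 3, a difference of 1.76 ± 0.26 (limma adjusted p = 0.000399, 4.06e-06 to 0.00417). The upf3-1 arrays read 8.06, 8.57 and 7.79 on day 6, against 6.61, 7.46 and 7.53 on day 3, and its difference of 0.94 was called (0.0206, 0.00127 to 0.188) but not without upf3-1 day 3 replicate 1 (0.188) or day 6 replicate 2 (0.137), nor when only the 6 arrays compared entered the fit (0.0933). AT2G15780, a cupredoxin-family copper protein, gained 1.12 ± 0.21 in upf1-1 (0.00325, 0.000113 to 0.0356) and 0.61 in upf3-1 (0.0648, not called). BETA-VPE, a vacuolar processing enzyme, gained 0.99 ± 0.20 in upf1-1 (0.00671, 0.00039 to 0.0415) and 0.39 in upf3-1 (0.255, not called). The reverse was seen for AT5G38900, a thioredoxin-superfamily protein, with 7.67, 7.81 and 7.82 on day 6 in upf3-1, against 6.06, 6.44 and 6.56 on day 3. Its gain was 1.41 ± 0.20 in upf3-1 (7.83e-05, 1.34e-06 to 0.00229). In upf1-1 it gained 0.78 (0.0317, 0.000784 to 0.127), a call lost without any 1 of 5 of the 6 arrays (adjusted p of 0.0552 without day 3 replicate 1, 0.0743 and 0.127 without day 3 replicates 2 and 3, 0.085 and 0.0876 without day 6 replicates 1 and 3). None of these 4 genes was called by the interaction test.

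**Figure D3:**
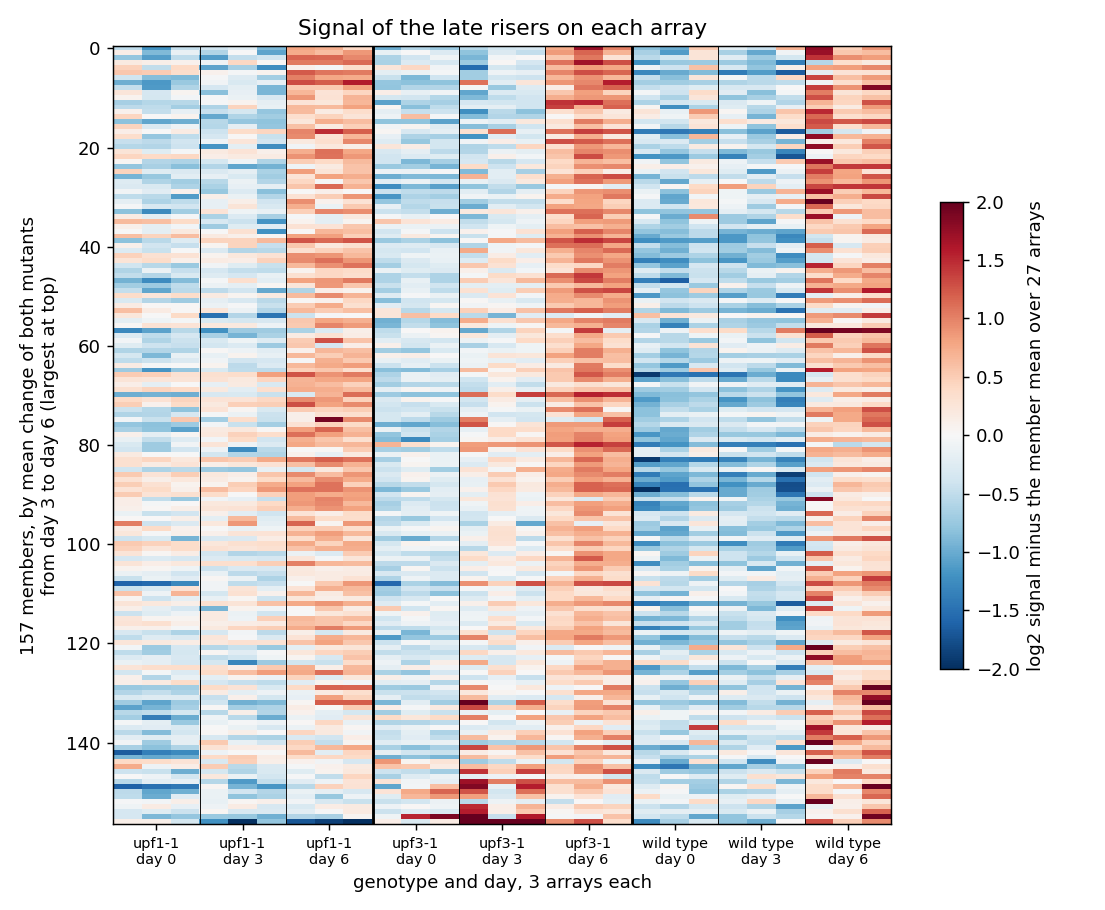
Log2 signal of the 157 late risers on each of the 27 arrays, minus each probe set's own mean over those arrays. Rows are probe sets, ordered by the mean late change of both mutants with the largest at the top, columns run through days 0, 3 and 6 of upf1-1, upf3-1 and wild type with 3 arrays each, and the wild-type day 6 block is high by the choice itself.

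Between days 0 and 3 more late risers were called higher in upf3-1 than in upf1-1, and the difference between these 2 early changes was not tested. In upf3-1, 54 late risers were called higher on day 3 than on day 0 and 4 lower, where 15.6% of all probe sets were called higher and 18.6% lower (34.2% in either direction). In upf1-1, 17 were higher and 10 lower, where 12% and 12.2% of all were (24.1% in either direction), so its share of 10.8% called higher lay near the background. The median change was 0.34 in upf3-1, 0.07 in upf1-1 and, by the choice, 0.02 in wild type. Both mutants had 14 in common among those called higher. Of the 54 in upf3-1, 28 were called higher again between days 3 and 6 and 26 were not, and in upf1-1 7 were and 10 were not. Joint shares over all probe sets are not given here, so nothing is read from these overlaps. Leaving out 1 array gave 41 to 47 in upf3-1 and 13 to 15 in upf1-1, with 13 in upf1-1 without day 0 replicate 1, whose title is in doubt. With spike-in centring the median change of all probe sets was 0.32 in upf3-1 and 0.15 in upf1-1, and the counts were 90 and 17. That centring called 7776 and 1964 of the 22746 probe sets higher, so the upf1-1 count again lay near the background.

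The chitinase-family gene AT2G43610 rose early in both, with the largest named gain in upf3-1. It read 6.72, 6.77 and 7.04 on day 0, 8.26, 7.81 and 7.87 on day 3, then 8.31, 8.85 and 9.19 on day 6 in upf1-1. In upf3-1 it read 6.76, 7.70 and 7.46, then 9.23, 8.79 and 9.59, then 9.01, 9.60 and 9.64. In wild type it read 8.61, 7.76 and 8.22, then 7.74, 7.66 and 7.94, then 9.63, 9.21 and 9.39. On day 3 every upf3-1 array lay above every wild-type array, while on day 0 every array of both mutants lay below every wild-type one. The change to day 3 was 1.14 ± 0.25 in upf1-1 (SE, limma adjusted p = 0.00155, 0.000246 to 0.0131 over the alternatives) and 1.90 ± 0.25 in upf3-1 (2.56e-06, 9.22e-09 to 0.00125). Its later change was 0.80 in upf1-1 and 0.21 in upf3-1, neither called (0.0763 and 0.703).

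ALDH11A3, a cytosolic glyceraldehyde-3-phosphate dehydrogenase that does not use phosphate, rose in both intervals in both mutants. It read 4.28, 4.56 and 4.84, then 5.55, 5.54 and 5.74, then 6.36, 6.25 and 6.36 on days 0, 3 and 6 in upf1-1. The upf3-1 arrays read 4.36, 4.46 and 4.28, then 5.13, 5.87 and 5.73, then 6.36, 6.58 and 6.43. In wild type it read 3.88, 3.96 and 3.99, then 3.96, 4.31 and 3.87, then 4.63, 5.16 and 5.26, so both mutants had passed the wild-type day 6 mean by day 3. The change to day 3 was 1.05 ± 0.17 in upf1-1 (limma adjusted p = 4.06e-05, 8.17e-06 to 0.000655) and 1.21 ± 0.17 in upf3-1 (4.3e-06, 2.94e-07 to 0.0016). The later change was 0.88 in upf3-1 (0.00121, 0.00037 to 0.0332). In upf1-1 it was 0.71 (0.0177, 0.00186 to 0.0631), and that call was lost without day 3 replicate 1 (0.0611) or 2 (0.0631) or day 6 replicate 2 (0.0523) or 3 (0.0554). By day 3, the mean lay above the wild-type day 6 mean in 33 late risers in upf1-1 and in 31 in upf3-1. The share over all probe sets is not given here, and the choice made the wild-type day 6 mean high. Nothing is therefore read from these 2 counts.

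AT5G06730, a class III peroxidase of the kind secreted to the wall, gained 1.06 ± 0.23 by day 3 in upf1-1 (limma adjusted p = 0.0014, 8.57e-05 to 0.0132) and 0.93 ± 0.23 in upf3-1 (0.00305, 0.000212 to 0.0189). AT5G05250 gained 1.40 ± 0.18 in upf1-1 (2.4e-06, 1.05e-06 to 4.68e-05). In upf3-1 it gained 0.60 (0.0112, 0.000974 to 0.0911), a call lost without upf3-1 day 3 replicate 3 (0.0911). On day 0 its levels already differed, with 6.88, 6.67 and 6.61 in upf3-1, against 5.40, 5.69 and 5.78 in upf1-1, a difference of 1.09 ± 0.18 (0.000717, 0.000503 to 0.00951).

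Only the upf3-1 test called several early gains that were large. AT3G21680, whose role is not given here, read 5.73, 4.76 and 5.65 on day 3 in upf3-1, against 3.86, 3.79 and 3.59 on day 0, a gain of 1.63 ± 0.24 (limma adjusted p = 8.9e-06, 1.02e-08 to 0.0015). In upf1-1 it read 3.93, 3.69 and 3.98 on day 3, against 3.87, 3.83 and 3.31 on day 0. The upf3-1 day 3 arrays lay above every upf1-1 and every wild-type day 3 array, the last at 3.86, 4.0 and 3.84. UGT72E2, which adds glucose to monolignols, gained 1.19 ± 0.21 in upf3-1 (0.000111, 1.38e-05 to 0.00281) and 0.25 in upf1-1 (0.471, not called). AT2G18370, of the lipid-transfer protein family, gained 1.33 ± 0.19 in upf3-1 (6.96e-06, 2.82e-07 to 0.00112) and changed by -0.41 in upf1-1 (0.125, not called). AT5G55050, a GDSL-type lipase, gained 0.79 ± 0.16 in upf3-1 (0.00052, 4.96e-05 to 0.00489) and changed by -0.10 in upf1-1 (0.739, not called).

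Some late risers first fell in the mutants. Of the 157, 10 (6.37%) were called lower on day 3 than on day 0 in upf1-1 and 4 (2.55%) in upf3-1. Over all probe sets 12.2% and 18.6% were, so these shares lay under the background. Called lower in both mutants were 4 late risers, and the matching share of all probe sets is not given here. One was STZ, a zinc-finger repressor of stress responses also known as ZAT10, with 7.03, 6.60 and 6.67 on day 0, 5.58, 5.99 and 5.90 on day 3, then 6.94, 7.04 and 6.86 on day 6 in upf1-1. In upf3-1 it read 6.50, 7.22 and 6.58, then 5.74, 6.02 and 6.00, then 6.62, 6.93 and 6.85. Wild-type arrays spread from 5.67 to 6.96 on day 3, with 6.75, 6.51 and 7.11 on day 0 and 7.75, 6.93 and 7.01 on day 6. In both mutants all day 3 arrays lay below all day 0 and day 6 arrays, so the course was a dip and a return. The fall to day 3 was -0.94 ± 0.25 in upf1-1 (limma adjusted p = 0.00695, 0.000373 to 0.0438). In upf3-1 it was -0.85 (0.0102, 0.000632 to 0.0843), lost without day 0 replicate 2 (0.0843) and with spike-in centring (0.0781). The rise after it was 1.12 in upf1-1 (0.0133, 8.27e-05 to 0.0651), lost without day 3 replicate 1 (0.061) or day 6 replicate 2 (0.0651). In upf3-1 it was 0.88 (0.0249, 0.000783 to 0.124), lost without day 3 replicate 1 (0.124) or 3 (0.0527) or day 6 replicate 2 (0.0952) or 3 (0.0737).

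AT1G76470, of an oxidoreductase family with a Rossmann fold, followed the same dip. It fell by day 3 by 1.11 ± 0.29 in upf1-1 (limma adjusted p = 0.00592, 0.00119 to 0.0415). In upf3-1 the change was -0.98 (0.00995, 0.005 to 0.105), lost without day 3 replicate 1 (0.105) and with spike-in centring (0.0667). Its gain between days 3 and 6 was 1.53 ± 0.29 in upf3-1 (0.00116, 2.66e-05 to 0.0241). In upf1-1 the late gain was called too, but less firmly. That call was lost without day 3 replicate 1 (limma adjusted p = 0.0862) or 3 (0.127) or day 6 replicate 2 (0.0723) or 3 (0.101). With trend and robust eBayes it was also lost (0.05003). Between days 0 and 6 neither STZ nor AT1G76470 was called in either mutant with the deposited scaling. With spike-in centring STZ was called higher in both (0.0146 in upf1-1 and 0.012 in upf3-1) and AT1G76470 in upf3-1 (0.000477). Under that centring 15501 of the 22746 probe sets were called higher in upf1-1 and 17896 in upf3-1, so these calls set neither gene apart.

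Over the whole culture, 87 of the 157 late risers were called higher in both mutants. The share of all probe sets called higher in both is not given here, so nothing is read from that overlap. From day 0 to day 6, 92 were called higher and 1 lower in upf1-1, where 15.5% of all probe sets were called higher and 16.7% lower (32.2% in either direction). In upf3-1, 122 were called higher and 1 lower, where 19.5% and 22.7% of all were (42.2% in either direction). The median change was 0.63 in upf1-1 and 0.97 in upf3-1, against 1.09 in wild type. These counts were steadier: 72 to 89 in upf1-1 and 115 to 121 in upf3-1 with 1 array left out, the 89 being the count without upf1-1 day 0 replicate 1. Of the 157, 20 were called higher in no time contrast of either mutant. The matching share of all probe sets is not given here, so nothing is read from that count.

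Set beside wild type, the mutants' late risers stood high on day 3 and, in upf1-1, lower on day 6. The median of mutant minus wild type on days 0, 3 and 6 was 0.10, 0.20 and -0.22 in upf1-1, and 0.14, 0.55 and 0.01 in upf3-1. On day 0, all 3 upf1-1 arrays lay above all 3 wild-type arrays in 48 late risers and below in 17, where 16.8% and 20.2% of all probe sets did so. Without replicate 1 the day 0 median was 0.04, with 52 above and 24 below (19.8% and 24% of all). The day 3 counts were 57 above and 8 below, where 16.0% and 17.3% of all did so, and the day 6 counts 41 above and 44 below, where 15.9% and 16.0% did. For upf3-1 the counts were 54 above and 16 below on day 0 (14.4% and 15.6% of all), 82 above and 5 below on day 3 (16.2% and 22%), and 50 above and 17 below on day 6 (16.8% and 21.0%). Both mutants are set against the same wild-type arrays, and those arrays chose the late risers, so nothing is tested here.

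Among the named late risers, 6 encode thylakoid proteins, a grouping made after their values were seen. PSBW and PSBY are small subunits of photosystem II and PSAE-1 a subunit of photosystem I. ATPC1 is the gamma subunit of the chloroplast ATP synthase, TROL anchors ferredoxin-NADP reductase to the membrane, and AT3G47070 is a thylakoid phosphoprotein. On day 0 all 6 had mutant means above wild type, by 0.66 to 1.44 in upf1-1 and by 0.30 to 1.06 in upf3-1, and on day 6 by 0.58 to 0.77 and by 0.50 to 0.83. Of all late risers, 58.6% in upf1-1 and 61.8% in upf3-1 lay above wild type on day 0, against 43.9% and 44.2% of all probe sets. PSBW, PSAE-1 and PSBY were named partly for standing highest over wild type on day 0. The wild-type arrays also chose the late risers, so nothing is read from the count of 6. Without upf1-1 day 0 replicate 1 the upf1-1 differences of the 6 genes on day 0 were 0.72 to 1.41. PSBW, which led these differences on day 0, read 8.77, 8.73 and 8.64 on day 0, 8.83, 8.77 and 9.10 on day 3, then 9.27, 9.40 and 9.23 on day 6 in upf1-1. The upf3-1 arrays read 8.25, 8.47 and 8.29, then 8.61, 9.02 and 8.74, then 9.23, 9.38 and 9.47. In wild type it read 7.06, 7.26 and 7.50, then 7.56, 7.76 and 6.85, then 8.25, 8.76 and 8.60. Every mutant day 0 array lay above every wild-type array of days 0 and 3, and the wild-type day 3 arrays were the most uneven.

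**Figure D4:**
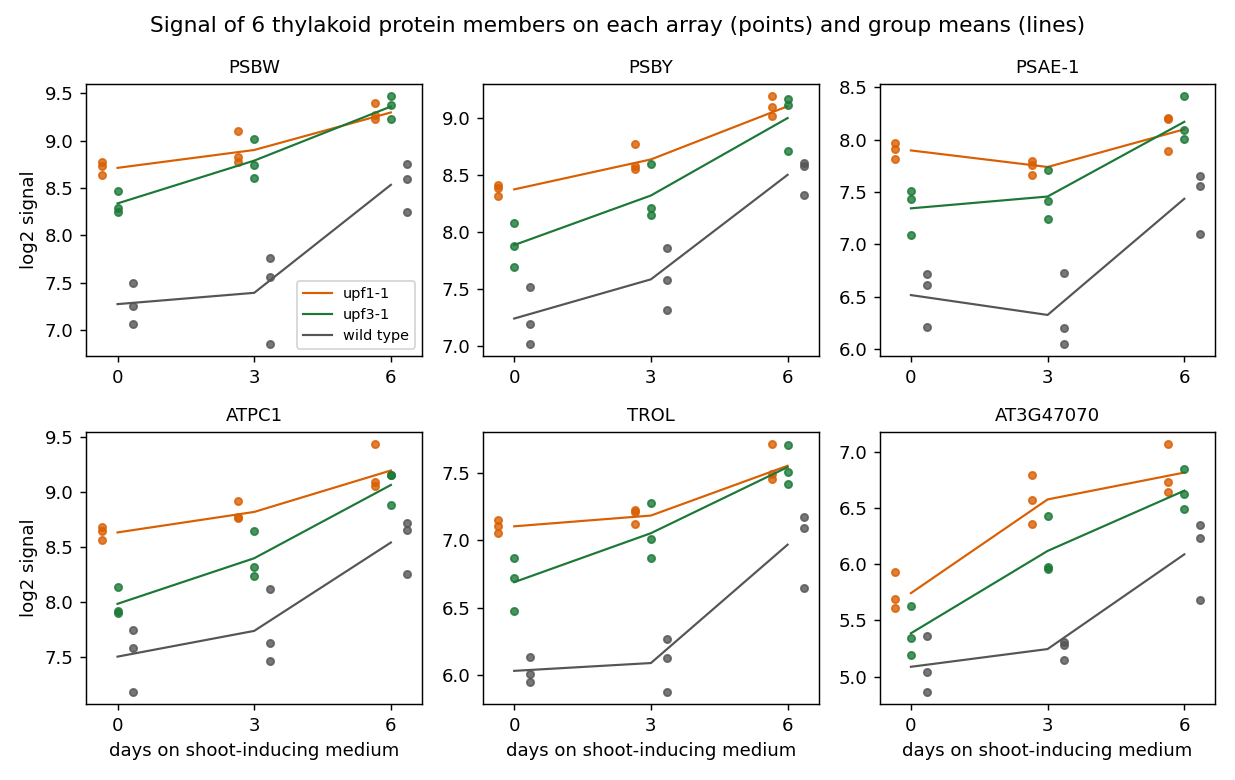
Log2 signal of the 6 thylakoid-protein late risers on days 0, 3 and 6, with 1 point per array and a line through the means, for upf1-1, upf3-1 and wild type. Both mutants start above wild type on day 0, upf1-1 highest, and the median difference between the mutants is smallest on day 6.

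Between days 3 and 6, 6 of the 6 were called higher in upf3-1, where 5.27% of all probe sets were, with a median change of 0.62. In upf1-1 0 of 6 were called by limma with the deposited scaling, with a median of 0.37. All 6 day 6 means still lay above day 3. Of the 6, 4 had an unadjusted limma p under 0.05, where 8.75% of all probe sets were higher at that level. With spike-in centring 6 of 6 were called, where 4126 of the 22746 probe sets were called higher. With reference-gene centring 1 was, where 792 were. PSBY held under every setting in upf3-1: it read 8.71, 9.17 and 9.11 on day 6, against 8.14, 8.60 and 8.21 on day 3, a difference of 0.68 ± 0.15 (limma adjusted p = 0.00412, 0.00108 to 0.0487). In upf1-1 PSBY read 9.01, 9.19 and 9.10 on day 6, against 8.55, 8.58 and 8.77, a difference of 0.47 (0.0801, not called) with no overlap. The upf3-1 count was 1 of 6 without day 3 replicate 1, 2 without day 6 replicate 2, 3 without day 3 replicate 3, 4 without day 6 replicate 3 and 5 without day 6 replicate 1. Between days 0 and 3, 5 of 6 were called higher in upf3-1 and 1 in upf1-1, where 15.6% and 12% of all probe sets were. The upf1-1 count thus lay near its background. The 5 became 1 without day 0 replicate 1 or day 3 replicate 2, and 2 without day 0 replicate 3 or day 3 replicate 3. From day 0 to day 6 the counts were 5 of 6 in upf1-1 and 6 of 6 in upf3-1, the second whichever array was left out. Over all probe sets 15.5% and 19.5% were called higher. AT3G47070, the 1 thylakoid gene called by day 3 in upf1-1, gained 0.83 ± 0.17 by then in upf1-1 (0.000786, 0.000325 to 0.00846) and 0.73 ± 0.17 in upf3-1 (0.00177, 4.83e-05 to 0.0185). Between the mutants, ATPC1 alone was called on day 0, with -0.65 for upf3-1 over upf1-1 (0.0196, 0.00434 to 0.0907). That call was lost without upf1-1 day 0 replicate 1 (0.0853) or 3 (0.0617) and without upf3-1 day 0 replicate 1 (0.0656) or 2 (0.0907), and with spike-in centring (0.0839).

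A list of 50 nuclear photosynthesis genes had 8 with a probe set of their own, 4 of which are late risers and so not independent of the paragraph above. Of the 8, 7 were called higher between days 3 and 6 in upf3-1 and 1 in upf1-1, where 5.27% and 2.29% of all probe sets were. With spike-in centring the upf1-1 count became 8, where 4126 of the 22746 probe sets were called higher. Between days 0 and 6, 8 of 8 were called higher in upf3-1 and 5 in upf1-1, where 19.5% and 15.5% of all probe sets were. On day 0 the log2 of their summed signal was 11.14 to 11.23 in upf1-1, 10.61 to 10.74 in upf3-1 and 9.81 to 10.22 in wild type. The 3 ranges did not overlap, also without upf1-1 day 0 replicate 1.

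**Figure D5:**
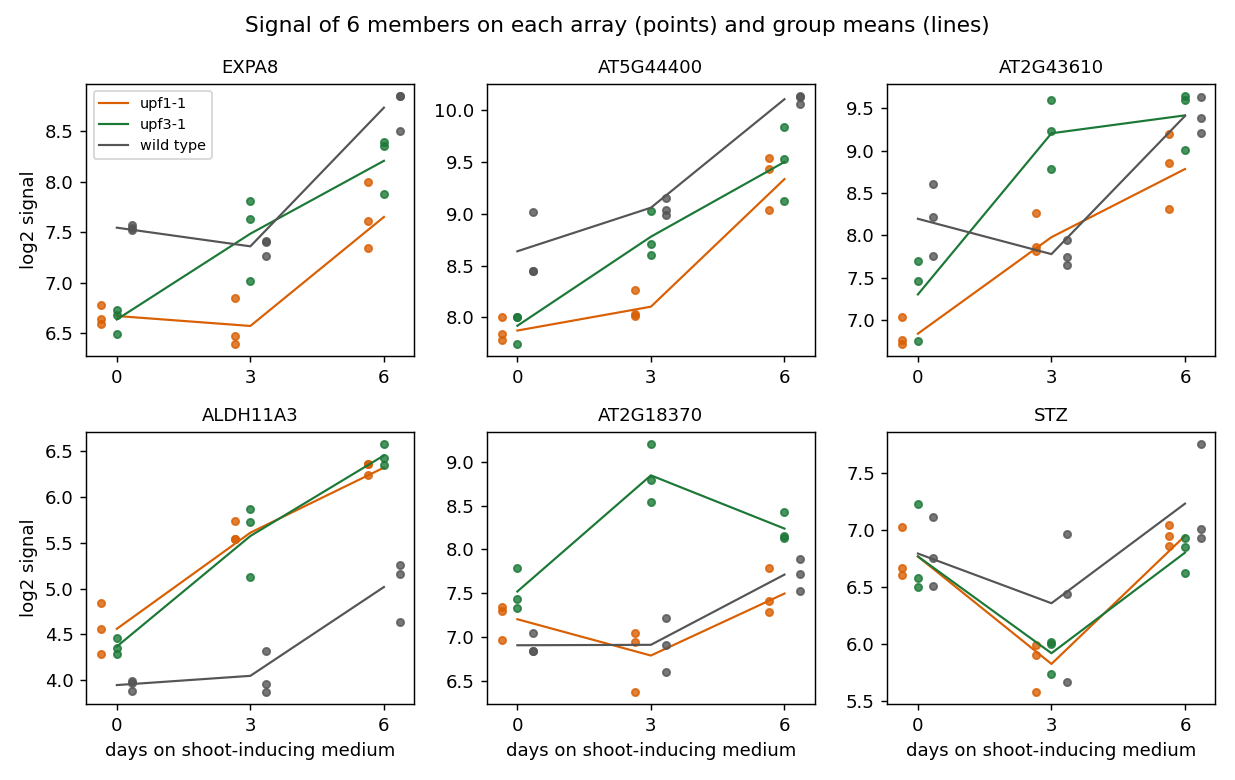
Log2 signal of named late risers on days 0, 3 and 6, with 1 point per array and a line through the means, for upf1-1, upf3-1 and wild type. The panels are EXPA8, AT5G44400, AT2G43610, ALDH11A3, AT2G18370 and STZ. AT2G18370 peaks on day 3 in upf3-1 alone, and STZ is lowest on day 3 in all 3 genotypes.

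Wall proteins made up 9 named late risers, again grouped after their values were seen. EXPA8, an expansin that loosens the wall, read 6.65, 6.78 and 6.59 on day 0, 6.85, 6.40 and 6.48 on day 3, then 7.34, 7.61 and 8.0 on day 6 in upf1-1. In upf3-1 it read 6.68, 6.73 and 6.49, then 7.80, 7.02 and 7.63, then 7.88, 8.35 and 8.39. In wild type it read 7.54, 7.57 and 7.52, then 7.27, 7.40 and 7.41, then 8.51, 8.85 and 8.84, above every mutant array on days 0 and 6. The late change was 1.08 ± 0.18 in upf1-1 (limma adjusted p = 0.00109, 6.49e-05 to 0.0153), while in upf3-1 the gain by day 3 was 0.85 ± 0.18 (0.000505, 2.39e-05 to 0.0113). On day 3 upf3-1 stood 0.91 ± 0.18 over upf1-1 (0.00172, 6.56e-05 to 0.0546), a call lost when only the 6 arrays compared entered the fit (0.0546). The further gain in upf3-1 after day 3 was 0.72 (0.00897, 0.00207 to 0.0993), lost without day 3 replicate 2 (0.0594) or day 6 replicate 2 (0.0519) or 3 (0.0533), and when only the 6 arrays compared entered the fit (0.0993).

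Of the 9 wall genes, 5 were called higher between days 3 and 6 in upf1-1 and 4 in upf3-1, where 2.29% and 5.27% of all probe sets were. With spike-in centring 8 and 6 were, where 4126 and 2874 of the 22746 probe sets were called higher. With the deposited scaling the upf1-1 count was 2 without day 3 replicate 3 or day 6 replicate 2, and 3 without day 3 replicate 1, day 3 replicate 2 or day 6 replicate 3. The upf3-1 count was 1 without day 6 replicate 2 or 3, and 2 without any 1 of the day 3 arrays. From day 0 to day 3, 5 were called higher in upf3-1 and 2 in upf1-1, where 15.6% and 12% of all probe sets were. The upf1-1 count was 1 without day 0 replicate 1 or 3 or day 3 replicate 1. Over both intervals 7 were called higher in each mutant, where 15.5% of all were in upf1-1 and 19.5% in upf3-1. AT3G28550, an extensin-like structural protein, rose late in upf3-1, with 4.75, 4.85 and 4.88 on day 6, against 4.18, 4.12 and 4.03 on day 3 (0.71 ± 0.13, limma adjusted p = 0.000864, 0.000455 to 0.00618). In upf1-1 it read 4.25, 4.97 and 4.79 on day 6, against 4.19, 3.88 and 3.93 (0.67 ± 0.13, 0.00494, 0.000109 to 0.0967), a call lost when only the 6 arrays compared entered the fit (0.0967). AT2G41810, of the DUF642 family of wall proteins, gained 0.84 ± 0.18 by day 3 in upf3-1 (0.000944, 5.49e-05 to 0.00851) and changed by -0.30 in upf1-1 (0.277, not called). XTH19, which cuts and rejoins xyloglucan chains, was called in no time contrast of either mutant with the deposited scaling, with late changes of 0.63 in upf1-1 and 0.16 in upf3-1 (0.199 and 0.801). With spike-in centring it was called higher in 3 of the 6, the late change in upf1-1 (0.0123) and both the early (0.0216) and the whole change (0.000148) in upf3-1. Of the 22746 probe sets, that centring called 4126, 7776 and 17896 higher in these 3 contrasts.

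AT5G44400, a berberine bridge enzyme-like oxidoreductase, was not placed in the wall group and, like EXPA8, was called late in upf1-1 and in both intervals in upf3-1. It read 9.03, 9.54 and 9.43 on day 6 in upf1-1, against 8.26, 8.03 and 8.01 on day 3 (1.23 ± 0.16, limma adjusted p = 0.000129, 2.51e-05 to 0.0027). The upf3-1 arrays read 8.71, 8.60 and 9.03 on day 3, against 8.0, 8.01 and 7.74 on day 0 (0.86 ± 0.16, 0.000212, 7.14e-05 to 0.00277). Its further change by day 6 in upf3-1 was 0.72 (0.00527, 0.00141 to 0.0639), lost without day 6 replicate 2 (0.0524) and when only the 6 arrays compared entered the fit (0.0639). The likeness to EXPA8 was picked out after the values were seen.

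Defence and stress proteins made up 10 named late risers, a group also set after their values were seen. AT1G02360, a chitinase-family gene, had the largest late gain of them in upf3-1, with 6.76, 7.73 and 7.01 on day 6, against 5.42, 5.63 and 5.67 on day 3 (1.59 ± 0.36, limma adjusted p = 0.00493, 0.000117 to 0.0435). In upf1-1 it gained 1.16 without being called (0.0691). AT5G49760, a leucine-rich repeat receptor kinase, read 7.46, 7.72 and 7.49 on day 6 in upf3-1, against 6.48, 6.34 and 6.82 on day 3 (1.01 ± 0.19, 0.00125, 5.54e-05 to 0.0106). AT1G69550, an immune receptor of the TIR-NBS-LRR class, read 3.91, 4.68 and 3.98 on day 6 in upf1-1, against 3.1, 3.31 and 3.14 on day 3 (1.00 ± 0.18, 0.00274, 6.49e-05 to 0.0289). In these comparisons the day 6 and day 3 arrays did not overlap. CuAO1, AT5G49760, AT1G69550, AT3G28550, AT3G21680, AT5G55050, BETA-VPE, TROL and AT3G16530 lie outside the rule for named genes and were chosen after their values were seen.

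Of these 10 genes, 3 were called higher between days 3 and 6 in upf1-1 and 4 in upf3-1, where 2.29% and 5.27% of all probe sets were. With spike-in centring 8 and 7 were, where 4126 and 2874 of the 22746 probe sets were called higher. With the deposited scaling the upf1-1 count was 1 without day 3 replicate 1, and 2 without day 3 replicate 3, day 6 replicate 2 or day 6 replicate 3. The upf3-1 count was 2 without day 3 replicate 1, day 6 replicate 2 or day 6 replicate 3. Between days 0 and 3, 1 was called higher and 1 lower in upf1-1, and 2 higher and 1 lower in upf3-1, where 12% and 15.6% of all probe sets were called higher and 12.2% and 18.6% lower, so these counts lay near the background. The 2 higher in upf3-1 became 1 without day 0 replicate 2, day 3 replicate 1 or day 3 replicate 3. The lectins JAL23 and AT3G16530 were called in no time contrast of either mutant with the deposited scaling. With spike-in centring JAL23 was called in 4 of the 6 time contrasts and AT3G16530 in 3, all higher. From day 0 to day 6 both genes were called in both mutants. There that centring called 15501 of the 22746 probe sets higher in upf1-1 and 17896 in upf3-1.

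The mutants were also set against each other on each day. With upf3-1 set over upf1-1, 31 late risers were called higher and 2 lower on day 3, where 5.5% of all probe sets were called higher and 4.5% lower (10% in either direction). The day 0 comparison gave 6 higher and 14 lower, where 2.28% and 2.22% of all were (4.51% in either direction). The day 6 comparison gave 10 higher and 2 lower, where 1.46% and 1.32% were (2.78% in either direction). Of the 31, 11 were called whichever array was left out. The order of the day 0 and day 3 totals turned with the setting: 39 on day 0 and 15 on day 3 with only the arrays compared in the fit, and 26 and 25 at a mean signal of at least 6. The day 3 total of 33 was 13 without upf3-1 day 3 replicate 1, 15 without upf1-1 day 3 replicate 2, and 16 without upf1-1 day 3 replicate 3 or upf3-1 day 3 replicate 3. The day 0 total of 20 was 8 without upf1-1 day 0 replicate 1, 11 without upf1-1 day 0 replicate 2 or 3, 12 without upf3-1 day 0 replicate 1 and 13 without upf3-1 day 0 replicate 2. The day 6 total of 12 was 2 without upf3-1 day 6 replicate 2 and 5 to 6 without upf1-1 day 6 replicate 1 or 2 or upf3-1 day 6 replicate 3.

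AT2G18370 had the largest named difference on day 3. It read 9.20, 8.54 and 8.80 in upf3-1, 6.95, 6.37 and 7.04 in upf1-1, and 6.91, 7.22 and 6.60 in wild type, so the upf3-1 arrays stood clear of all others. The difference of upf3-1 over upf1-1 was 2.06 ± 0.19 (limma adjusted p = 4.72e-07, 2.35e-08 to 0.0106). From day 3 to day 6 it then changed by -0.61 in upf3-1 (0.0422, 0.0151 to 0.281) and by 0.71 in upf1-1 (0.0365, 0.00224 to 0.191). The upf3-1 fall was lost without day 3 replicate 1 (0.281) or 3 (0.0849), without day 6 replicate 1 (0.131) or 2 (0.137), with spike-in (0.246) or reference-gene centring (0.0551), with only the groups compared (0.0762) or the 18 mutant arrays (0.053) in the fit, and with trend and robust eBayes (0.0501). The upf1-1 rise was lost without day 3 replicate 1 (0.0539) or 2 (0.191) and without day 6 replicate 2 (0.0903) or 3 (0.156), and with only the groups compared in the fit (0.0978). The difference between these late changes, -1.32, missed the threshold (0.0539).

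AT3G21680 stood 1.51 ± 0.24 higher in upf3-1 than in upf1-1 on day 3 (limma adjusted p = 0.000283, 6.28e-06 to 0.0249). AT2G43610 stood 1.22 ± 0.25 higher (0.00309, 0.000705 to 0.0292) and AT2G41810 0.96 ± 0.18 higher (0.00172, 0.000269 to 0.0284). On day 0, AT5G55050 read 5.68, 6.11 and 5.80 in upf3-1, against 6.63, 6.89 and 6.87 in upf1-1, and AT2G27080 read 7.32, 7.44 and 7.46, against 8.15, 7.84 and 8.02. Both were lower in upf3-1, by -0.93 ± 0.16 (0.00133, 0.000701 to 0.0121) and -0.60 ± 0.12 (0.00373, 0.00159 to 0.0353). On day 6, AT2G38870, a protease inhibitor of the potato inhibitor I family and the largest named wild-type rise, read 6.78, 7.20 and 7.25 in upf3-1, 5.33, 6.05 and 5.99 in upf1-1 and 7.36, 6.84 and 7.50 in wild type. Its difference of 1.29 ± 0.27 (0.00875, 0.00669 to 0.0519) was lost without upf1-1 day 6 replicate 1 (0.0519) or upf3-1 day 6 replicate 2 (0.0514).

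The unnamed probe set 247718_at, singled out after its values were seen, parted most from the wild-type course. It read 6.96, 6.97 and 6.49 on day 0, 5.64, 4.75 and 6.06 on day 3, then 5.14, 4.98 and 4.37 on day 6 in upf1-1. In upf3-1 it read 6.99, 6.55 and 7.01, then 10.66, 9.09 and 9.81, then 7.76, 8.14 and 7.21. In wild type it read 5.59, 6.18 and 6.54, then 6.07, 5.87 and 6.85, then 8.12, 7.33 and 7.79. It thus peaked on day 3 in upf3-1 and declined in upf1-1. On day 3 it stood 4.37 ± 0.37 higher in upf3-1 than in upf1-1 (limma adjusted p = 1.61e-07, 9.52e-13 to 0.0104), and on day 6 2.87 ± 0.37 higher (6.79e-05, 2.05e-07 to 0.00872). Its late change in upf3-1 was -2.15 ± 0.37 (0.000448, 9.25e-05 to 0.0215).

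A few late risers varied so much between arrays of a group that their calls followed single arrays. AT5G10040 and AT5G66985 belong to the core set of genes that plants induce when oxygen is low. AT5G10040 read 3.95, 3.93 and 3.74 on day 3 in upf1-1, 7.01, 4.24 and 6.30 in upf3-1, and 3.90, 4.26 and 4.12 in wild type. AT5G66985 read 6.89, 5.91 and 5.68 on day 3 in upf1-1, 8.71, 6.69 and 8.42 in upf3-1, and 6.89, 7.22 and 6.74 in wild type. In both, upf3-1 day 3 replicate 2 was the lowest of its group, and on day 6 wild-type replicate 3 was the highest of its own, at 6.64 and 8.86. Their differences of upf3-1 over upf1-1 on day 3, 1.98 and 1.78, were called (limma adjusted p = 0.0206, 0.000385 to 0.179, and 0.0164, 0.000671 to 0.131). Both calls were lost without upf3-1 day 3 replicate 1 (0.179 and 0.131) or 3 (0.0974 and 0.0903), without upf1-1 day 3 replicate 2 (0.0591 and 0.0718) or 3 (0.064 and 0.0778), and when only the 6 arrays compared entered the fit (0.105 and 0.0997). The beta-tubulin gene TUB1 read 7.23, 5.86 and 6.41 in upf3-1, 5.64, 5.90 and 5.41 in upf1-1 and 5.32, 5.13 and 4.66 in wild type on day 3, with upf3-1 replicate 1 again on top.

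AT2G47780, a lipid-droplet-associated protein, had the largest named gap to wild type on day 0 when both mutants are averaged. It read 6.96, 6.11 and 6.34 in upf1-1, 6.78, 6.74 and 6.38 in upf3-1, and 4.95, 4.76 and 5.26 in wild type, with no overlap. On day 6 it read 6.16, 6.29 and 6.39 in upf1-1, 6.64, 7.13 and 6.79 in upf3-1, and 6.24, 6.31 and 6.53 in wild type. It was called in no time contrast of either mutant with the deposited scaling, and with spike-in centring from day 0 to day 6 in upf3-1 alone (0.84, 0.00321). With that centring 17896 of the 22746 probe sets were called higher in the same contrast. The upf1-1 day 0 arrays spanned the wild-type day 6 ones, while the upf3-1 day 0 arrays, at 6.38 to 6.78, overlapped them in part.

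Markers of other cell types were compared over the same days. Of 13 root hair genes, 4 had a probe set of their own (EXPA7, EXPA18, AT1G30870 and AT3G49960), none of them late risers. Between days 3 and 6, 4 of 4 were called higher in both mutants, where 2.29% of all probe sets were in upf1-1 and 5.27% in upf3-1. The median changes of the 4 were 0.93 in upf1-1 and 1.28 in upf3-1. The log2 of their summed signal on days 0, 3 and 6 lay at 6.17 to 6.86, 8.41 to 9.13 and 9.34 to 10.10 in upf1-1, at 6.94 to 7.41, 8.80 to 9.15 and 9.94 to 10.38 in upf3-1, and at 6.13 to 6.46, 8.70 to 8.98 and 9.96 to 10.68 in wild type. Root hair genes therefore rose in the same interval, and their part in the late risers was not tested. Of 22 shoot meristem and leaf primordium genes, 4 were measured (CLV3, YAB3, LAS and PHV), and 0 were called between days 3 and 6 in either mutant by limma, with 0 at an unadjusted p under 0.05. Of 8 stomatal genes, 3 were measured and 0 were called by limma, with 1 lower in upf3-1 at an unadjusted p under 0.05. With spike-in centring 1 was called higher in upf1-1, where 4126 of the 22746 probe sets were. Xylem, endodermis, phloem, cuticle and sugar starvation lists had no gene with a probe set of its own in the annotation used.

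The thresholds cut through a continuous range. Just inside the wild-type rise of 0.8 lay AT2G18370 (0.80), ATPC1 (0.80) and AT2G27080 (0.80), and just outside AT1G62290 (0.79), AT1G76360 (0.79) and AT1G74470 (0.79). Just inside the upper bound on the change to day 3 lay AT1G19020 (0.48), AT1G26290 (0.48) and AT5G06730 (0.46), and just outside FACT (0.50), AT5G26260 (0.51) and AT1G10585 (0.55). Just inside the lower bound lay XTH19 (-0.49), STZ (-0.44) and AT2G43610 (-0.42), and just outside AT5G64120 (-0.54), AT1G61610 (-0.55) and AT1G30700 (-0.57).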

How the data were processed

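The values are log2 signals per probe set from Affymetrix arrays, deposited by the authors and normalized by RMA per the submitters' processing notes. Its version was not given in the sources used here. Such normalization makes the overall distributions of the arrays alike, so a change shared by most transcripts would not show. The 2 deposited tables held identical values and 1 was used. Symbols came from the platform annotation, and only probe sets with 1 symbol were named. The late risers and all gene lists were chosen with earlier results of these data known.

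All 27 arrays were fitted with limma 3.58.1 (lmFit and eBayes) in R 4.3.3, with 1 mean per group and no covariate. The 10 contrasts tested compared mutant arrays only, with Benjamini-Hochberg adjustment over 22746 probe sets and a two-sided threshold of 0.05. The wild-type arrays, which chose the late risers, entered the shared estimate of spread. With only the 18 mutant arrays in the fit, 72 late risers were called higher between days 3 and 6 in upf1-1 and 105 in upf3-1. Genes were named by the size of their wild-type rise, of their called changes in the mutants and of their mutant differences, and by the group lists; exceptions are stated. Alternatives were the fit on the groups compared or on the 18 mutant arrays alone, the replicate block, trend and robust eBayes, other scalings, 1 probe set a gene, a mean signal of at least 6, other thresholds and leaving out each array. Choosing the late risers again without each wild-type array, and describing day 0 of upf1-1 or a wild-type rise without 1 array, were added after seeing the data. On simulated data for upf1-1 day 6 over day 3 with 22746 probe sets, the test recovered 53 of 67 changes of 1.5-fold, 61 of 67 of 2-fold and 66 of 66 of 4-fold, with 7 false calls. The changed probe sets were drawn at random from all of them. The late risers were noisier than most in wild type, so these rates may be too high for them.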

Additional observations from a re-analysis of the deposited data

Results flagged for a closer look

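The unnamed probe set 259036_at was the 1 late riser whose change between days 3 and 6 differed between the mutants by limma's interaction term. It read 7.20, 7.26 and 6.85 on day 6 in upf3-1, against 5.40, 5.38 and 5.35 on day 3, a difference of 1.73 (limma adjusted p = 4.95e-07, 9.73e-08 to 0.00101 over the alternatives). In upf1-1 it read 6.02, 5.97 and 6.40 on day 6, against 5.73, 5.81 and 5.57 on day 3, a difference of 0.43 that was not called (0.162). Wild type read 6.42, 6.18 and 7.01 on day 6, against 5.45, 5.66 and 5.16 on day 3. The difference between the mutants' changes was 1.29 ± 0.24 (SE) with a limma adjusted p of 0.0333, and 0.0123 to 0.211 over the alternatives. It was called in 6 of 19 alternatives. The call held without upf1-1 day 6 replicate 1 (0.0282), upf3-1 day 3 replicate 2 (0.0123) or upf3-1 day 6 replicate 3 (0.0395). It was lost without upf1-1 day 3 replicate 1 (0.0692), 2 (0.13) or 3 (0.0524), without upf1-1 day 6 replicate 2 (0.119) or 3 (0.0674), without upf3-1 day 3 replicate 1 (0.104) or 3 (0.0907), and without upf3-1 day 6 replicate 1 (0.0974) or 2 (0.0938).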

How the results depend on the processing

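Counts are of late risers called by limma, in the order upf1-1 then upf3-1 for day 6 over day 3 (58 and 94), day 3 over day 0 (17 and 54) and day 6 over day 0 (92 and 122), then in either direction for upf3-1 over upf1-1 on days 0, 3 and 6 (20, 33 and 12) and for the interaction (1). No called value of a named gene changed sign under the alternatives run, but orders of counts did: with spike-in centring the late count was 134 in upf1-1 and 122 in upf3-1, and the day 0 total passed the day 3 total as given below and at a mean signal of at least 6 (26 and 25). With 1 probe set a gene, which tests fewer probe sets, the counts were 21, 28, 6, 24, 33, 44, 4, 14, 5 and 0. With a mean signal of at least 6 they were 59 for upf3-1 day 6 over day 3, 6 and 33 for day 3 over day 0, 60 and 76 for day 6 over day 0 and 0 for the interaction. With a wild-type rise of at least 1 (76 late risers) they were 31, 44, 5, 25, 44 and 54, then 9 on day 0 and 20 on day 3. With the change to day 3 within 0.25 (82 late risers) they were 31, 48, 5, 27, 49 and 61, then 7, 17 and 6. Spike-in centring gave 134 for upf1-1 day 6 over day 3, 90 for upf3-1 day 3 over day 0, 143 for upf1-1 day 6 over day 0, 8 on day 0, 3 on day 6 and 0 for the interaction, and reference-gene centring 0 for the interaction. With only the groups compared in the fit, upf1-1 day 3 over day 0 gave 27, day 0 39, day 3 15 and the interaction 0, and with only the 18 mutant arrays day 0 gave 33. The cause of these shifts was not tested beyond the smaller sets. Leaving out 1 array, wild-type arrays with the late risers chosen again included, gave 23 to 71, 51 to 112, 12 to 25, 41 to 69, 72 to 108, 101 to 142, 8 to 27, 13 to 46, 2 to 14 and 0 to 3. The replicate block gave 63, 91, 17, 57, 93, 121, 29, 34, 12 and 0. Same-numbered arrays correlated at -0.299 to 0.209 in their deviations. The highest values paired upf1-1 with upf3-1 on the same day: 0.113 on day 0, 0.209 and 0.168 on day 3, 0.172 and 0.139 on day 6. The other same-day pairs of the mutants gave -0.136 and -0.122 on day 0, -0.105 on day 3 and -0.003 on day 6. Whether same-numbered arrays of a day were handled together was not tested. The 3 arrays a group, and the larger spread of the late risers, limit what small changes can be called.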
